A study of Drosophila melanogaster with 12 samples.

Results

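Regulators of S phase entry and the endocycle were followed in adult male accessory glands of *Drosophila melanogaster*. The 10 genes are *CycE*, *Cdk2*, *CycD*, *Cdk4*, *dap*, *fzr*, *Rca1*, *Skp2*, *ago* and *l(2)dtl*, and each was taken by its symbol from the 14323 genes of the gene table. All 10 were found and 9 passed the filter on low values. The accessory gland makes seminal fluid proteins, and its epithelium of main and secondary cells is polyploid and largely quiescent in the adult. RNA was measured in 12 libraries of 80 to 100 pooled glands each, 3 libraries for each of 4 genotypes, all at day 10.

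Every genotype, control included, carried hs-flp, the Act>CD2>gal4 flipout cassette, UAS-GFP(nls) and UAS-P35, which encodes a viral inhibitor of apoptosis. Heat shock for 20 min at 37°C removed the stop cassette in part of the cells, and flies were then kept at 25°C. Myc+E2f/Dp glands added UAS-dMyc, UAS E2F1 and UAS-Dp. Yki*+Dp glands added UAS-Dp and a UAS-Yki transgene altered at the 3 sites its label numbers, the allele written here as Yki*, which encodes Yorkie, the transcriptional coactivator of Hippo signalling, in an activated form. Their label also lists UAS E2F1, which by the study's account this line had lost the ability to induce well. YkiWT glands added UAS-yki, and GFP+P35 glands were the control. Because Gal4 was driven by an actin promoter in a mosaic, each library mixed cells with and without the transgenes, and muscle, duct and other tissue left on the gland could contribute RNA. In such bulk samples, fewer cells of a type and less RNA per cell cannot be told apart.

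In the G1 to S transition, Cyclin D with Cdk4 and Cyclin E with Cdk2 phosphorylate the retinoblastoma protein Rbf and release E2f1/Dp, which activates genes of DNA replication. Dacapo, encoded by *dap*, is the fly CDK inhibitor of the p21/p27 family and acts on Cyclin E/Cdk2. In endocycles, DNA is replicated without mitosis: Cyclin E/Cdk2 activity oscillates, and the anaphase-promoting complex (APC/C) with its activator Fizzy-related (*fzr*, the fly Cdh1) removes mitotic cyclins and Geminin. Rca1, related to vertebrate Emi1, inhibits APC/C-Fzr. The remaining genes encode substrate receptors of cullin ubiquitin ligases: Archipelago (*ago*, the fly Fbw7), which targets Cyclin E and Myc, Skp2, known in mammals for the turnover of p27, and *l(2)dtl*, the fly Cdt2, which targets the licensing factor Dup and E2f1 in S phase.

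The deposited values are TPM, a length-corrected abundance that adds up to the same sum in each library, so the depth behind a value is unknown. TPM values are printed as deposited. A log2 fold change is a difference between group means of log2(TPM × factor + 1). The factor of a library is its median ratio over the 6633 genes that reached 1 TPM in every one of the 12 libraries. Differences of low-TPM genes are understated on this scale. The factors were 0.645 to 0.776 in Myc+E2f/Dp, 0.928 to 0.989 in Yki*+Dp, 1.16 to 1.26 in YkiWT and 1.13 to 1.36 in GFP+P35. Without them the median log2 fold change of all genes against GFP+P35 was 0.74 for Myc+E2f/Dp and 0.30 for Yki*+Dp, and with them it was 0.05 and -0.00. A gene was called at an adjusted p below 0.05 (limma, Benjamini-Hochberg over the 8128 genes tested) and a log2 fold change of 1 or more, up or down. The comparisons with control share the same 3 GFP+P35 libraries. The labels do not say that libraries of a group came from separate crosses, so p-values measure only the spread between these libraries.

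Transgene RNA was read first, as a check of the labels. *E2f1* had 795 to 1021 TPM in Myc+E2f/Dp, 18.5 to 22.8 TPM in Yki*+Dp, 14.4 to 17.4 TPM in YkiWT and 16.5 to 21.2 TPM in GFP+P35, so Yki*+Dp glands held no excess of it. *Dp* had 618 to 1449 TPM in Myc+E2f/Dp and 1866 to 2548 TPM in Yki*+Dp, against 19 to 24.5 TPM in GFP+P35. *Myc* had 114 to 232 TPM in Myc+E2f/Dp, against 15.2 to 21.7 TPM in GFP+P35. *yki* had 348 to 431 TPM in Yki*+Dp, 70.5 to 163 TPM in YkiWT and also 55.9 to 176 TPM in Myc+E2f/Dp, against 14.2 to 16.5 TPM in GFP+P35, so the label of Myc+E2f/Dp, which names no yki transgene, does not account for its *yki* RNA. The 6 main cell markers summed to 30300 to 45400 TPM in the 12 libraries. The 10 early germline and testis tip markers summed to 3.19 to 4.29 TPM in Myc+E2f/Dp, 0.820 to 1.51 TPM in Yki*+Dp, 0.887 to 8.25 TPM in YkiWT and 0.930 to 1.24 TPM in GFP+P35, where *nos* and *bam* were listed at 0. YkiWT replicate 3 stood apart with the highest of these sums, and its values are given separately where they matter.

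In GFP+P35 glands, the APC/C activator *fzr* was the most abundant of the 10 genes, at 9.48 ± 1.59 TPM (SD, n = 3), and *CycD* followed at 7.44 ± 0.482 TPM. Their libraries did not overlap, since *fzr* ranged from 8.15 to 11.2 TPM and *CycD* from 7.12 to 8.0 TPM. The Cyclin E receptor *ago* came next at 5.28 ± 0.540 TPM and *dap* after it at 1.95 ± 0.297 TPM, each below all libraries of the gene before it. *CycE*, *Rca1*, *l(2)dtl* and *Cdk4* lay close together, with means of 1.08, 0.923, 0.836 and 0.812 TPM and overlapping libraries. *Cdk2* at 0.320 ± 0.0584 TPM and *Skp2* at 0.199 ± 0.0441 TPM were lowest. Both lay below every library of the 4 genes before them, and *Skp2* at its highest, 0.247 TPM, was under the lowest *Cdk2* value, 0.256 TPM. In control glands the kinase partners of Cyclin E and Cyclin D were thus listed below *fzr* and *CycD*, which stood at the 77.9 and 74.6 percentile of the gene table.

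**Figure D1:**
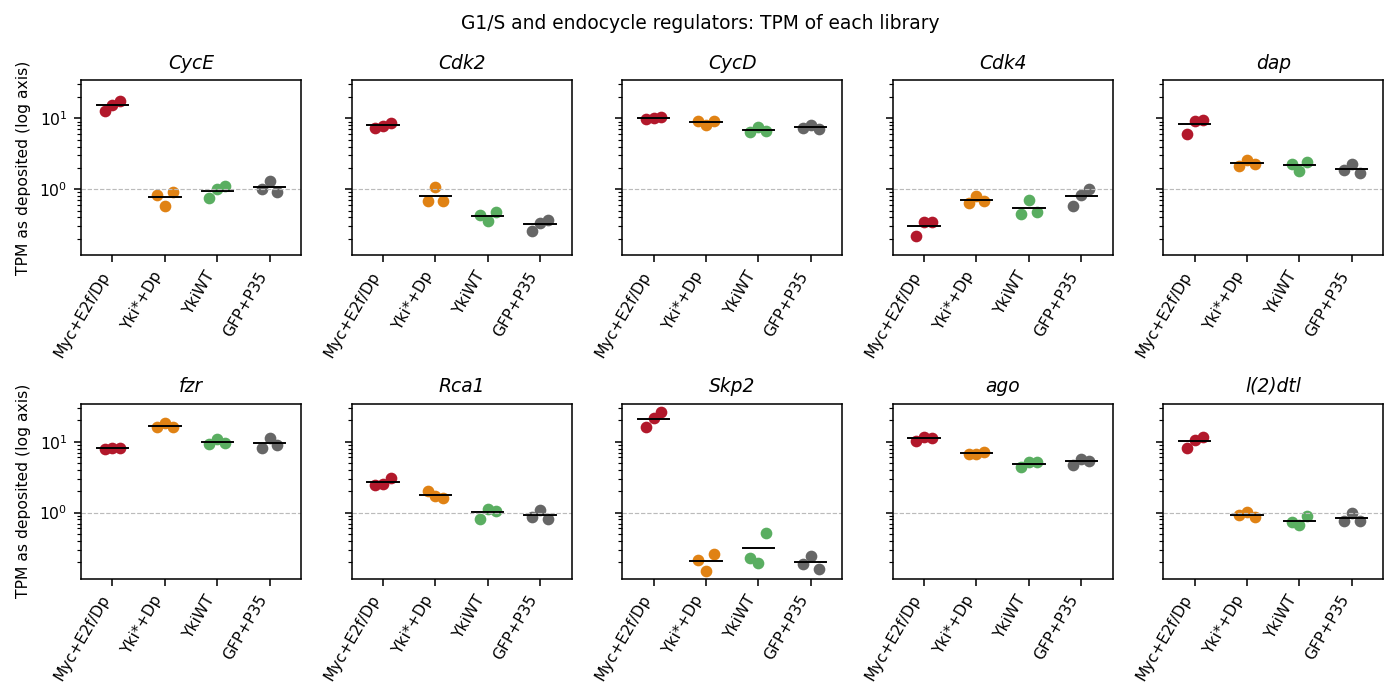
TPM as deposited of the 10 genes (log axis, 1 panel per gene) in Myc+E2f/Dp, Yki*+Dp, YkiWT and GFP+P35 libraries. Points are libraries, the bar is the mean of 3 and the dashed line marks 1 TPM. *Skp2*, *CycE*, *l(2)dtl* and *Cdk2* stand apart in Myc+E2f/Dp, *fzr* is highest in Yki*+Dp, and *Cdk4* stays near or below 1 TPM in every library.

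In Myc+E2f/Dp glands the order was different. *Skp2*, last in control, was first at 21.3 ± 5.34 TPM, and *CycE* was second at 15.2 ± 2.44 TPM, with overlapping libraries. The genes *ago*, *l(2)dtl* and *CycD* followed with means of 11.1, 10.2 and 10.1 TPM and overlapping libraries. *dap*, *fzr* and *Cdk2* had means of 8.20, 8.12 and 7.95 TPM, again with overlap. Only *Rca1* at 2.70 ± 0.356 TPM and *Cdk4* at 0.304 ± 0.0712 TPM lay below all of these. In Yki*+Dp glands *fzr* was first at 16.9 ± 1.14 TPM and *Skp2* last at 0.208 ± 0.0545 TPM, and the first 4 places, held by *fzr*, *CycD*, *ago* and *dap*, were as in control.

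Of the 9 tested genes, 4 were called higher in Myc+E2f/Dp than in GFP+P35 and none lower, where 7.15% of all tested genes were called higher and 5.94% lower. The 4 are *CycE*, *Cdk2*, *Skp2* and *l(2)dtl*. *Cdk2*, *Skp2* and *l(2)dtl* passed the filter only through the Myc+E2f/Dp libraries, so they had to differ, and the count is not support for a change of the group. All 9 had an adjusted p below 0.05 when the fold threshold was dropped, 7 higher and 2 lower, and so did 64.9% of all tested genes. The median log2 fold change of the 9 was 0.97, beside 0.05 over all tested genes. It includes *Cdk2*, *Skp2* and *l(2)dtl*, so the median is not support either.

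The Cyclin E and Cdk2 pair drives S phase entry. *CycE* (FBgn0010382, chromosome 2L from 15727581 to 15748150, minus strand) had 12.6, 15.6 and 17.4 TPM in Myc+E2f/Dp glands, against 1.01, 1.32 and 0.915 TPM in GFP+P35 glands. The lowest Myc+E2f/Dp library was far above the highest control library, and the log2 fold change was 2.32 (standard error 0.102, limma adjusted p = 1.62e-08). *Cdk2* (FBgn0004107, chromosome 3R from 20735623 to 20738414, plus strand) had 7.37, 7.79 and 8.70 TPM in Myc+E2f/Dp, against 0.256, 0.331 and 0.371 TPM in GFP+P35. Its log2 fold change was 2.24 (standard error 0.0885, limma adjusted p = 6.89e-09), and the ratio of mean scaled TPM was 14.1, against 7.96 for *CycE*. Both genes were thus higher in 3 of 3 Myc+E2f/Dp libraries. *Cdk2* was tested only through those libraries and had to differ, so its adjusted p is not support.

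The receptor *Skp2* (FBgn0037236, chromosome 3R from 4334879 to 4337674, minus strand) changed most among the 9. It had 15.9, 21.3 and 26.6 TPM in Myc+E2f/Dp glands, against 0.191, 0.247 and 0.160 TPM in GFP+P35 glands. The log2 fold change was 3.66 (standard error 0.126, limma adjusted p = 2.23e-09), which ranked 12 of the 8128 genes from the largest rise, and the ratio of mean scaled TPM was 60.1. *l(2)dtl* (FBgn0013548), the receptor that targets Dup, had 8.20, 10.4 and 11.9 TPM in Myc+E2f/Dp, against 0.753, 1.0 and 0.755 TPM in GFP+P35. Its log2 fold change was 1.99 (standard error 0.0858, limma adjusted p = 1.4e-08), with no overlap between the groups. Because *Skp2* and *l(2)dtl* were tested only through the Myc+E2f/Dp libraries, they had to differ. Their adjusted p and the rank of *Skp2* are therefore not support.

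The CDK inhibitor *dap* (FBgn0010316) moved the same way but stopped short of the fold threshold. It had 6.08, 9.07 and 9.44 TPM in Myc+E2f/Dp, against 1.85, 2.29 and 1.72 TPM in GFP+P35, for a log2 difference of 0.97 (standard error 0.115, limma adjusted p = 2.98e-05). Every Myc+E2f/Dp library was above every control library. The value passed 1 with TPM as deposited (1.62), with the 75th percentile as scaling (1.07), with pseudocounts of 0.1 and 0.5 (1.2 and 1.08), without Myc+E2f/Dp replicate 1 (1.08) and without GFP+P35 replicate 2 (1.01). *Rca1*, the APC/C-Fzr inhibitor, had 2.42, 2.58 and 3.10 TPM in Myc+E2f/Dp, against 0.857, 1.10 and 0.817 TPM in GFP+P35. Its log2 fold change was 0.44 (standard error 0.0848, limma adjusted p = 9.78e-04), under the fold threshold, and 0.94 with TPM as deposited.

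For *CycD* and *ago* the values depended on the scaling. *CycD* had 9.88, 10.2 and 10.3 TPM in Myc+E2f/Dp, against 7.21, 8.0 and 7.12 TPM in GFP+P35. After scaling all Myc+E2f/Dp libraries lay below control, at a log2 difference of -0.33 (standard error 0.0754, limma adjusted p = 0.00259), and with TPM as deposited the direction turned and the value was 0.40. The Cyclin E receptor *ago* had 10.1, 11.8 and 11.4 TPM in Myc+E2f/Dp, against 4.71, 5.78 and 5.36 TPM in GFP+P35. Scaled, the log2 difference was 0.22 (standard error 0.0623, limma adjusted p = 0.00849), and with TPM as deposited it was 0.95. *Cdk4*, the partner of Cyclin D, did not pass the filter. It had 0.222, 0.343 and 0.347 TPM in Myc+E2f/Dp, against 0.586, 0.839 and 1.01 TPM in GFP+P35, so its libraries lay below those of control. In the fit with no filter, its log2 fold change was -0.72 (standard error 0.0882, limma adjusted p = 1.35e-04 over 14209 genes).

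**Figure D2:**
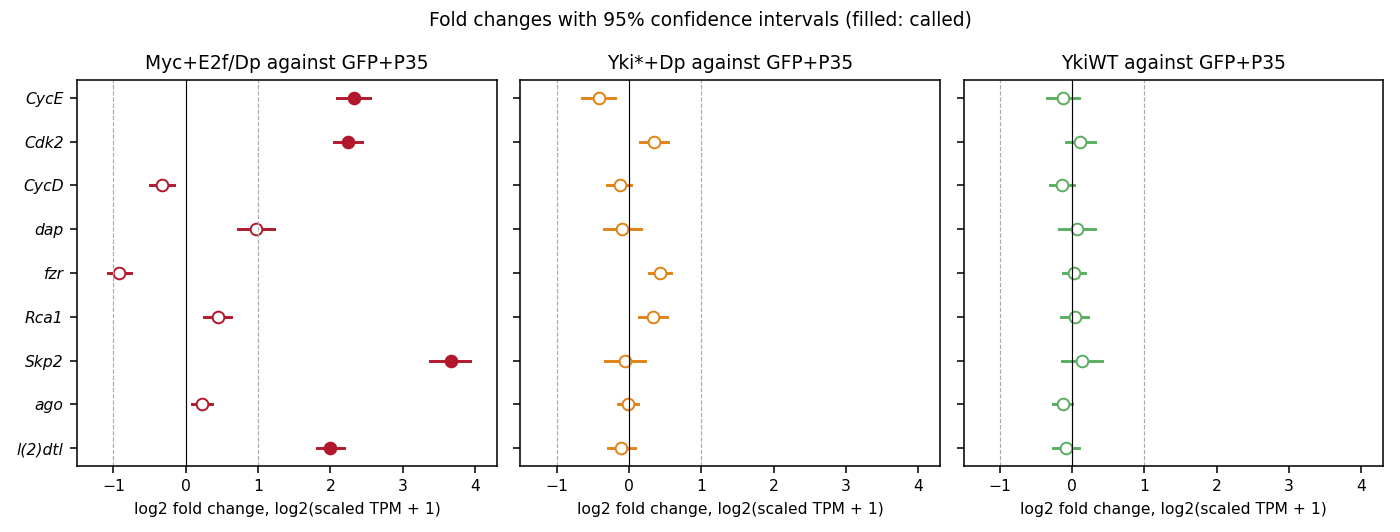
Log2 fold changes of the 9 tested genes against GFP+P35 (horizontal axis, differences of log2(scaled TPM + 1)) in Myc+E2f/Dp, Yki*+Dp and YkiWT. Lines are 95% confidence intervals, filled points are called and dashed lines mark the fold threshold. In Myc+E2f/Dp the points run from -0.92 for *fzr* to 3.66 for *Skp2*, in Yki*+Dp from -0.42 for *CycE* to 0.43 for *fzr*, and in YkiWT from -0.14 to 0.13.

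The APC/C activator *fzr* (FBgn0262699, chromosome X from 4667290 to 4679537, minus strand) had 7.93, 8.19 and 8.25 TPM in Myc+E2f/Dp, 16.2, 18.2 and 16.2 TPM in Yki*+Dp, and 8.15, 11.2 and 9.05 TPM in GFP+P35. In Myc+E2f/Dp its log2 fold change was -0.92 (standard error 0.0698, limma adjusted p = 1.13e-06), just short of the fold threshold. With TPM as deposited the value was -0.19 with an adjusted p of 0.121, so this difference rests on the scaling. Against the same control, the value in Yki*+Dp was 0.43 (standard error 0.0698, limma adjusted p = 6.07e-04) with all 3 libraries higher, and 0.78 with TPM as deposited. Myc+E2f/Dp and Yki*+Dp also differed by a call of their own contrast, at -1.34 (standard error 0.0698, limma adjusted p = 5.92e-08), and was -0.97 with TPM as deposited, which no longer passed the fold threshold.

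Muscle markers moved with *fzr* in Myc+E2f/Dp. All 6 markers (*Mhc*, *Mlc1*, *Mlc2*, *Act57B*, *up* and *TpnC73F*) were called lower in Myc+E2f/Dp than in GFP+P35, with log2 fold changes from -1.24 to -1.01. Their summed scaled TPM was 144 to 192 in Myc+E2f/Dp, 410 to 453 in Yki*+Dp, 397 to 471 in YkiWT and 350 to 426 in GFP+P35. None of the 6 was at 0, and the part of muscle RNA in the *fzr* values was not tested. *fzr* had 15.5 to 16.9 scaled TPM in Yki*+Dp and 11.6 to 12.7 scaled TPM in YkiWT, where the scaled muscle sums overlapped. With TPM as deposited the muscle sums were 185 to 297 in Myc+E2f/Dp, 414 to 488 in Yki*+Dp, 331 to 407 in YkiWT and 261 to 336 in GFP+P35, so those of Yki*+Dp lay above both other sets, as its *fzr* values did. Of the gland markers, 3 of 6 main cell markers and 3 of 5 secondary cell markers were called lower in Myc+E2f/Dp than in GFP+P35. Of all tested genes, 5.94% were. The gland markers not called were also lower with the scaling of the calls. Their log2 fold changes ran from -0.79 for *Acp62F* to -0.12 for *Acp76A*. Their direction rests on the scaling: the mean TPM as deposited was lower for *Abd-B* but not for *Acp26Aa*, *Acp62F*, *Acp76A* and *dve*. The 5 fat body markers summed to 11.4 to 17.1 TPM in Myc+E2f/Dp, 3.49 to 6.58 TPM in Yki*+Dp, 2.34 to 3.75 TPM in YkiWT and 1.41 to 3.33 TPM in GFP+P35, and their part in the values of the regulators was not tested.

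**Figure D3:**
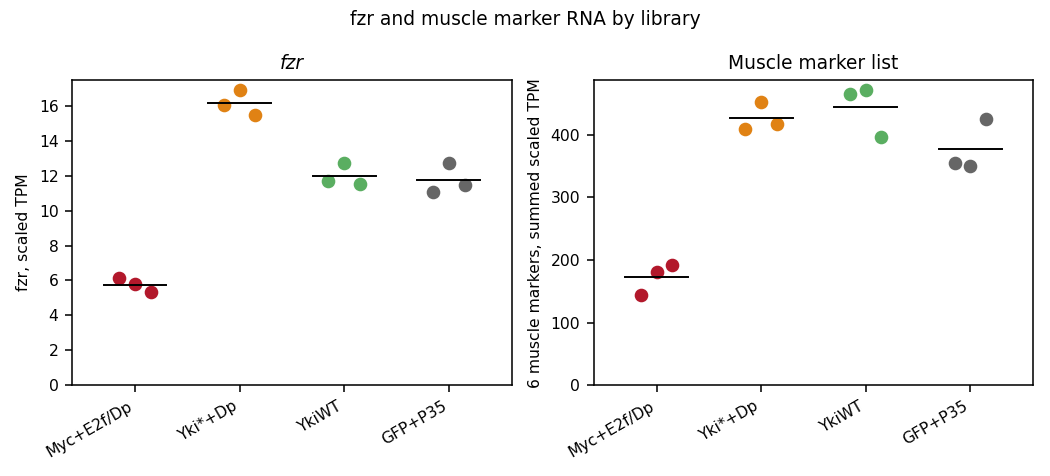
Scaled TPM of *fzr* (left) and of 6 muscle markers summed (right), both axes from 0, in Myc+E2f/Dp, Yki*+Dp, YkiWT and GFP+P35 libraries. Points are libraries and bars are means of 3. Myc+E2f/Dp has the lowest values of each, and *fzr* is highest in Yki*+Dp at 15.5 to 16.9 while the muscle sums of Yki*+Dp, YkiWT and GFP+P35 overlap.

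No gene of the 9 was called in Yki*+Dp against GFP+P35, where 6.99% of all tested genes were called in either direction. By limma 4 had an unadjusted p below 0.05, and the same number passed the adjusted p when the fold threshold was dropped, against 39% of all tested genes. Besides *fzr*, these were *CycE*, *Cdk2* and *Rca1*. *CycE* had 0.837, 0.583 and 0.919 TPM in Yki*+Dp against 1.01, 1.32 and 0.915 TPM in GFP+P35. After scaling all 3 Yki*+Dp libraries were below control, at a log2 difference of -0.42 (standard error 0.102, limma adjusted p = 0.00663) and a ratio of mean scaled TPM of 0.558. With TPM as deposited the groups overlapped and the value was -0.23 with an adjusted p of 0.164. *Cdk2* rose, with 0.678, 1.08 and 0.690 TPM in Yki*+Dp against 0.256, 0.331 and 0.371 TPM in GFP+P35, a log2 difference of 0.34 (standard error 0.0885, limma adjusted p = 0.0105) and a ratio of 1.95. The value of *Cdk2* was 0.45 with TPM as deposited, and neither gene reached the fold threshold.

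*Rca1* had 1.99, 1.72 and 1.62 TPM in Yki*+Dp, against 0.857, 1.10 and 0.817 TPM in GFP+P35. The groups did not overlap, and the log2 fold change was 0.33 (standard error 0.0848, limma adjusted p = 0.00989), or 0.53 with TPM as deposited. For *CycD*, *dap*, *Skp2*, *ago* and *l(2)dtl* the adjusted p in Yki*+Dp was 0.188 or more, and the 95% intervals of the 5 log2 differences lay between -0.34 and 0.22. A rise of the size seen in Myc+E2f/Dp for *dap*, *Skp2* or *l(2)dtl* lay outside those intervals. Without the scaling *ago* was at 0.32 with an adjusted p of 0.0145.

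YkiWT glands differed least from control. No gene of the 9 was called, where 2.13% of all tested genes were, and by limma none had an unadjusted p below 0.05. None passed the adjusted p at any fold, as 10.6% of all tested genes did. The 95% intervals of all 9 log2 differences lay between -0.35 and 0.41. The upper bound belonged to *Skp2*, which had 0.232, 0.192 and 0.516 TPM in YkiWT, against 0.191, 0.247 and 0.160 TPM in GFP+P35. Its log2 fold change of 0.13 became 0.01 without YkiWT replicate 3, and without that library again none of the 9 was called. In that library all *Skp2* RNA was assigned to the transcript Skp2-RA, and CG14645, named here after its values were seen because it overlaps *Skp2* on the opposite strand, had 21.4 TPM, against 0.134 and 0.0163 TPM in the other YkiWT libraries.

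YkiWT replicate 3 was also the library with the highest germline marker sum, with *vas* at 0.941 TPM. The mitotic genes *Cdk1*, *CycA* and *fzy* had 1.73, 1.02 and 0.629 TPM there, and at most 0.101, 0.0748 and 0.0201 TPM in the other YkiWT libraries. *CycE*, *Cdk2* and *l(2)dtl* had 1.11, 0.485 and 0.906 TPM in it. In the Myc+E2f/Dp libraries *vas* had 0.577 to 0.838 TPM. The 8 late testis markers summed to 5.76 to 19.6 TPM in Myc+E2f/Dp, 4.11 to 18.8 TPM in Yki*+Dp, 14.7 to 55.3 TPM in YkiWT and 4.31 to 46.9 TPM in GFP+P35. The values of YkiWT replicate 3 come from that library alone, and the part of germline RNA in the Myc+E2f/Dp values was not tested.

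Between the driver genotypes, 5 of the 9 genes were called higher and 1 lower in Myc+E2f/Dp than in Yki*+Dp, where 5% of all tested genes were called higher and 5.52% lower. *Cdk2*, *Skp2* and *l(2)dtl*, 3 of the 5, passed the filter only through the Myc+E2f/Dp libraries and had to differ. Neither this count nor their adjusted p is therefore support. The log2 differences were 3.71 for *Skp2*, 2.74 for *CycE*, 2.10 for *l(2)dtl*, 1.90 for *Cdk2* and 1.06 for *dap*, with limma adjusted p from 2.59e-09 to 1.7e-05, and *fzr* was the gene called lower. The *dap* difference was 0.98, under the threshold, without Myc+E2f/Dp replicate 2. *Rca1* was at 0.10 with a 95% interval from -0.08 to 0.29 after scaling, and at 0.41 with an adjusted p of 0.00645 with TPM as deposited. Both genotypes carried the Dp transgene, with more *Dp* RNA in Yki*+Dp. They also differed in Myc, E2f1 and activated Yorkie, so the share of each cannot be told apart.

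Yki*+Dp and YkiWT glands differ in the form of Yorkie, in the amount of *yki* RNA and in Dp, and these cannot be told apart. None of the 9 genes was called between them, where 4.02% of all tested genes were called. By limma 4 had an unadjusted p below 0.05 and 2 passed the adjusted p with no fold threshold, as did 27.7% of all tested genes. These were *fzr*, at 0.40 (standard error 0.0698, limma adjusted p = 0.00167), and *Rca1*, at 0.29 (standard error 0.0848, limma adjusted p = 0.0251), both higher in Yki*+Dp in 3 of 3 libraries, and 0.71 and 0.47 with TPM as deposited. *CycE* was at -0.30 with an adjusted p of 0.0501 and *Cdk2* at 0.23 with an adjusted p of 0.0792.

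Ratios of 2 genes within a library do not depend on its scaling. The ratio of *CycE* to its inhibitor *dap* was 1.72 to 2.07 in Myc+E2f/Dp, 0.227 to 0.405 in Yki*+Dp, 0.334 to 0.556 in YkiWT and 0.532 to 0.578 in GFP+P35. It was thus above control in 3 of 3 Myc+E2f/Dp libraries and below control in 3 of 3 Yki*+Dp libraries. The ratio of *Cdk2* to *dap* averaged 0.986 in Myc+E2f/Dp, 0.343 in Yki*+Dp, 0.196 in YkiWT and 0.163 in GFP+P35. The ratio of *fzr* to its inhibitor *Rca1* averaged 3.03 in Myc+E2f/Dp, against 9.53 in Yki*+Dp, 10.0 in YkiWT and 10.3 in GFP+P35. *CycD* exceeded *CycE* by a ratio of 11.4 in Yki*+Dp, 7.32 in YkiWT and 6.96 in GFP+P35, whereas in Myc+E2f/Dp the ratio was 0.673. With 3 libraries against 3, an exact two-sided permutation test cannot go below 0.10. Each of these 4 ratios reached that p in Myc+E2f/Dp against GFP+P35 (adjusted p = 0.154 over 20 tests) and against Yki*+Dp. In Yki*+Dp against GFP+P35 all but *fzr* to *Rca1* reached it too. *Cdk2* to *dap* and *CycD* to *CycE* also did in Yki*+Dp against YkiWT.

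The annotated transcripts show which RNA forms carried these levels. Of 27 transcripts of the 10 genes, 14 passed the filter, and 9 were called higher and none lower in Myc+E2f/Dp against GFP+P35, where 6.98% of 13045 tested transcripts were called higher and 5.08% lower. Of these 9, 8 passed the filter only through the Myc+E2f/Dp libraries and had to differ, in this comparison and in that with Yki*+Dp, so neither count is support. The remaining one was dap-RA, the only annotated *dap* transcript. It was called with the factors of the transcript values, while *dap* as a gene stayed just short, at 0.97. In Myc+E2f/Dp against Yki*+Dp, 9 were called higher and 1, fzr-RA, lower, where 4.48% of tested transcripts were called higher and 5.06% lower. None of the 14 was called in Yki*+Dp or YkiWT against GFP+P35 or between these, where 7.24%, 2.06% and 4.48% of tested transcripts were called. *CycE* RNA starts at several annotated sites. The 3 transcripts from position 15746610 held 60.1% ± 1.94 (SD, n = 3) of *CycE* TPM in Myc+E2f/Dp and 60.4% ± 6.27 in GFP+P35, and the 2 from position 15748150 held 39.2% ± 1.99 in Myc+E2f/Dp and 39.4% ± 6.35 in GFP+P35. The split between the sites therefore differed by less than its spread. CycE-RA, CycE-RC and CycE-RD, which share a protein length of 709 residues, had log2 fold changes of 1.81, 1.95 and 1.11. CycE-RB, which encodes 602 residues from a start site inside the gene, stayed at or below 0.125 TPM in every library.

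Within the group starting at 15746610, CycE-RD held a smaller share of *CycE* in Myc+E2f/Dp, at 18.7% ± 2.64, than in GFP+P35, at 30.7% ± 2.01 (SD, n = 3 each). Its share was also low in Yki*+Dp at 15.3% ± 5.38 and in YkiWT at 16.2% ± 6.17. Both *Skp2* transcripts encode 559 residues, and Skp2-RE carried 90.2% ± 2.52 of *Skp2* TPM in Myc+E2f/Dp, with 14.7, 19.4 and 23.2 TPM as its lowest, median and highest library. The *Cdk2* forms Cdk2-RB and Cdk2-RA, both of 314 residues, held 51.4% ± 3.35 and 40.1% ± 8.14 in Myc+E2f/Dp. The *fzr* RNA was nearly all fzr-RA, from 96.3% in GFP+P35 to 98.2% in Myc+E2f/Dp. The split of reads between overlapping forms is kallisto's estimate and is imprecise for genes near 1 TPM.

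**Figure D4:**
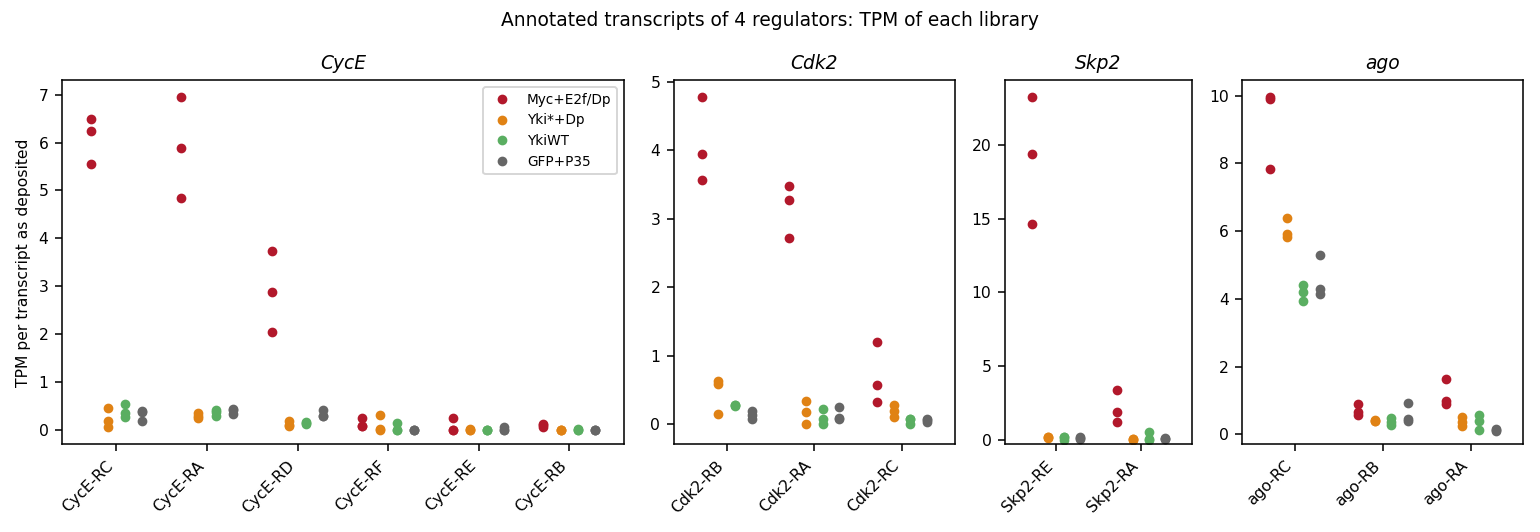
TPM as deposited of the annotated transcripts of *CycE*, *Cdk2*, *Skp2* and *ago* (1 column per transcript, linear axis scaled per panel) in Myc+E2f/Dp, Yki*+Dp, YkiWT and GFP+P35. Points are libraries. The Myc+E2f/Dp libraries stand above the rest for CycE-RC, CycE-RA, CycE-RD, Cdk2-RB, Cdk2-RA and both *Skp2* forms, with Skp2-RE at 14.7 to 23.2 TPM.

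The genes around these regulators were read from 7 lists of other cell cycle genes, 55 in all, of which 51 were tested. In Myc+E2f/Dp against GFP+P35, 22 of the 51 were called higher and none lower, beside the same 7.15% and 5.94% of all tested genes, and their median log2 fold change was 0.55. Of the 22, 14 passed the filter only through the Myc+E2f/Dp libraries and had to differ. Neither the count nor the median of the 51 is therefore support for a change of the lists. The count was 32 higher and none lower with TPM as deposited, where 2340 of all 8128 tested genes were called higher and 108 lower. Of 13 origin licensing and E2f S-phase targets, 12 were called higher, 8 of them tested only through the Myc+E2f/Dp libraries. *PCNA*, the replication clamp, had 89.8 to 119 TPM in Myc+E2f/Dp, against 0.0639 to 0.271 TPM in GFP+P35, and *RnrL*, the large ribonucleotide reductase subunit, had 50.1 to 59.4 TPM, against 0.434 to 0.573 TPM. *Cdc6* was the exception, at a log2 fold change of 0.43, and was called at 1.08 with TPM as deposited. Of 5 E2f and Rb proteins, 4 were called, among them the transgenes *E2f1* and *Dp* and also *Rbf*, which had 24.1 to 35.3 TPM in Myc+E2f/Dp, against 3.48 to 4.10 TPM in GFP+P35. Also called was *Rbf2*, which passed the filter only through the Myc+E2f/Dp libraries.

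The ligases into which the receptors fit come next. None of 6 tested genes of the SCF core list (*Cul1*, *SkpA*, *Roc1a*, *slmb*, *Nedd8* and *CSN5*) was called in Myc+E2f/Dp, with log2 fold changes from -0.18 to 0.37. The cullin *Cul1* was called with TPM as deposited, at 1.13 (17.8 to 22.1 TPM in Myc+E2f/Dp, against 7.66 to 9.46 TPM in GFP+P35). Of the 4 CRL4 genes and Cdt2 substrates, *dup*, which encodes the licensing factor Cdt1, was called at 2.22, while the cullin *Cul4* was at 0.24, or 0.98 with TPM as deposited. Of 13 APC/C subunits and cofactors, 1 was called, the mitotic activator *fzy* (Cdc20), with 5.63 to 9.55 TPM in Myc+E2f/Dp, against 0.0199 to 0.0893 TPM in GFP+P35. With scaling, 7.15% of all tested genes were called higher. On the deposited scale 3 of the 4 CRL4 genes and 4 of the 13 APC/C genes were called, where 2340 of all 8128 tested genes were called higher. Of 6 tested APC/C-Fzr substrates and mitotic regulators, 4 were called higher, namely *Cdk1* at 3.45, *CycB3* at 2.20, *CycA* at 1.78 and *geminin* at 1.13. Like *dup* and *fzy*, the first 3 passed the filter only through the Myc+E2f/Dp libraries and had to differ, so these counts are not support. *CycB* and *stg*, the string phosphatase that activates Cdk1, did not pass the filter and had at most 0.296 and 0.496 TPM in Myc+E2f/Dp. None of 4 tested Cdk-activating kinase and Cks genes was called, and with TPM as deposited *Cks85A* was, at 1.10.

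In Yki*+Dp against GFP+P35, 1 of the 51 was called higher, the transgene *Dp*, and 1 lower, the APC/C subunit *Cdc23*, where 5.52% of all tested genes were called higher and 1.46% lower. *Cdc23* had 5.31 to 5.85 TPM in Yki*+Dp, against 8.25 to 12.4 TPM in GFP+P35, a log2 difference of -1.18 (standard error 0.111, limma adjusted p = 1.48e-05). Without the scaling *Cdc23* was at -0.83, and 2 of the 51 were called higher and none lower. *E2f2*, the repressive E2f, was at -0.63 and the ribonucleotide reductase subunit *RnrL* at 0.64, both with an adjusted p below 0.05 and under the fold threshold, and with TPM as deposited *E2f2* was at -0.29. In YkiWT against GFP+P35 no gene of the lists was called. By limma 10 of the 51 had an unadjusted p below 0.05. Only 3 passed the adjusted p with no fold threshold, beside 10.6% of all tested genes. *Cdc23* was the furthest from 0, at -0.86.

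**Figure D5:**
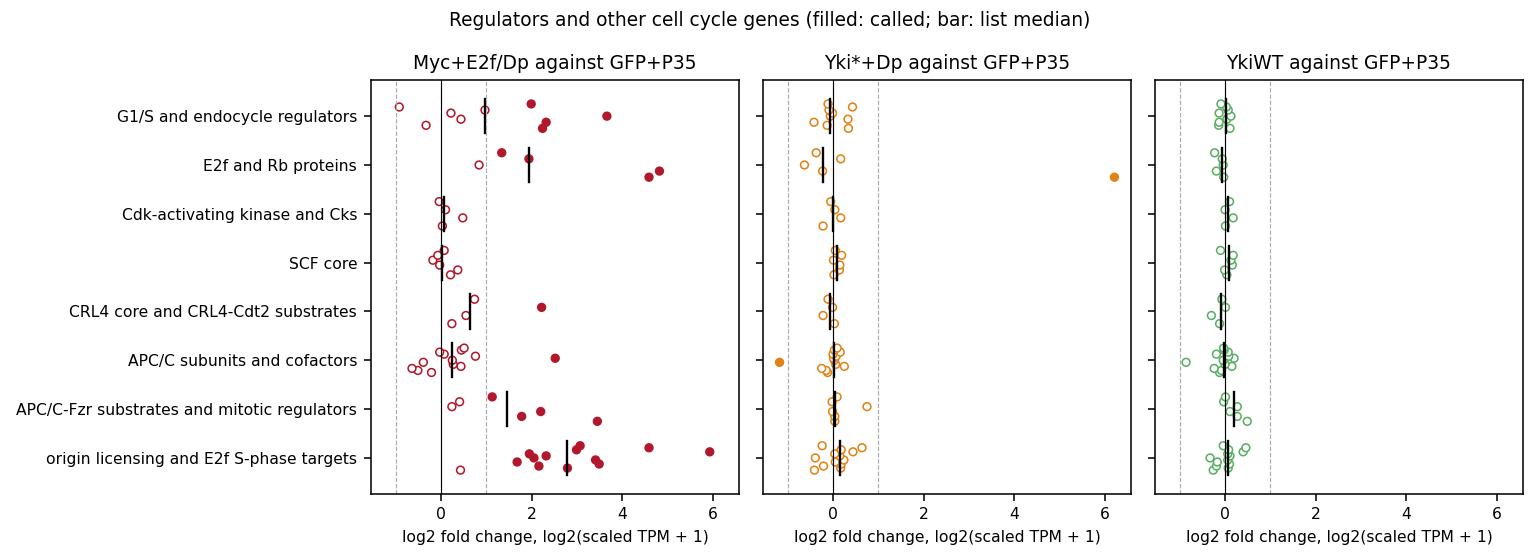
Log2 fold changes against GFP+P35 (horizontal axis, differences of log2(scaled TPM + 1)) of the G1/S and endocycle regulators and of 7 lists of cell cycle genes, in Myc+E2f/Dp, Yki*+Dp and YkiWT. Each point is a gene, filled where called, and the bar is the list median. In Myc+E2f/Dp 12 of 13 licensing and S-phase genes are called, 8 of them tested only through its libraries. None of 6 genes of the SCF core list is called with this scaling, and in YkiWT no gene is called.

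For each regulator called in any comparison, the genes with the most similar pattern were found by the root mean square difference of log2(scaled TPM + 1), centred on control, over the 12 libraries. *CycE* was nearest to *dpa* (0.127) and *Mcm3* (0.157), both MCM helicase genes, and then to CG9592 (0.199). *Cdk2* was nearest to CG13250 (0.128), *Irbp* (0.129) and *RecQ4* (0.129). *Skp2* was nearest to *Incenp* (0.081), *BthD* (0.124) and *aurB* (0.145), and *l(2)dtl* to CG3511, CG4613 and CG10445 (0.107 each). *dap* was nearest to CG33722 (0.107), CG18749 (0.108) and CG2990 (0.113). *fzr* was nearest to *Pgm1* (0.10) and *LanB2* (0.139), followed by *Mlc2* (0.146), a gene of the muscle list.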

How the data were processed

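RNA of 12 libraries was grouped by the genotype and replicate number in the sample labels. The authors selected poly-A RNA with a stranded kit, trimmed reads with cutadapt 1.18, assigned them to Ensembl BDGP6 transcripts with kallisto and deposited the TPM of transcripts and of genes. Gene values equalled the sums of their transcripts to within 3.64e-12 TPM. The kallisto version and strand setting are not given in the sources used here. Depth is unknown, so no counting error could be given.

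The deposited TPM was scaled by the median of ratios and taken to log2 after adding 1. The 8128 of 14323 genes that reached 1 TPM in 3 libraries entered the test and were fitted in 1 model over the 4 groups with limma 3.58.1 in R 4.3.3 (intensity trend), with Benjamini-Hochberg adjustment per comparison. The authors used sleuth, which needs resampled estimates not used here. The genes, the 7 pathway lists and the marker lists were chosen with earlier results of these data known. Text names all 10 genes, the transgenes, list genes called or named for their role, markers, and the 3 genes nearest in pattern to each called gene. Simulated data with 8128 genes, 200 of them changed, gave 98% of changed genes recovered in Myc+E2f/Dp against GFP+P35 at log2 changes of 1.5 and 2.5. The changed genes were drawn only from genes above a minimum mean level, and no filter was applied. *CycE*, *Cdk2*, *Rca1*, *Skp2* and *l(2)dtl* lay below that level, so the rate does not cover them. Alternatives were TPM as deposited, 75th percentile scaling, other pseudocounts, filters and fold thresholds, no intensity trend, compared groups only, a replicate block and leaving out each library. Coordinates and protein lengths are from Ensembl's BDGP6.54 annotation, and symbols were matched by name. Python 3.11.15 with matplotlib 3.10.9 drew the plots.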

Additional observations from a re-analysis of the deposited data

Results flagged for a closer look

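Among the G1/S and endocycle regulators, 6 differed between Myc+E2f/Dp and Yki*+Dp by a test of the difference itself (limma, adjusted over 8128 genes, past the fold threshold of 1). Of all tested genes, 5% were called higher and 5.52% lower in this comparison. The log2 differences, Myc+E2f/Dp minus Yki*+Dp, were 2.74 for *CycE*, 1.90 for *Cdk2*, 1.06 for *dap*, -1.34 for *fzr*, 3.71 for *Skp2* and 2.10 for *l(2)dtl*, each in 3 of 3 libraries. *Cdk2*, *Skp2* and *l(2)dtl* passed the filter only through the Myc+E2f/Dp libraries and had to differ, so the number 6 is not support for a difference of the group. After scaling, *fzr* was below GFP+P35 in all Myc+E2f/Dp libraries and above it in all Yki*+Dp libraries, and *CycE* and *l(2)dtl* were above it in the first and below it in the second, *l(2)dtl* there with an adjusted p of 0.368. With TPM as deposited, *CycE* in Yki*+Dp overlapped control, at -0.23 with a limma adjusted p of 0.164. The *fzr* difference was -0.97 with TPM as deposited. The 6 muscle markers were also called lower in Myc+E2f/Dp than in Yki*+Dp, with log2 differences from -1.53 to -1.08, and their part in the *fzr* value was not tested.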

How the results depend on the processing

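Of 940 alternative values for the 45 fold changes of the 9 tested genes, 908 kept direction and side of the threshold, 2 fell under it, 7 passed it and 23 changed sign, 21 of these where the adjusted p had been 0.05 or more. The number of regulators called was 4, 0, 0, 6 and 0 in Myc+E2f/Dp, Yki*+Dp and YkiWT against GFP+P35, Myc+E2f/Dp against Yki*+Dp and Yki*+Dp against YkiWT. With no fold threshold it was 9 in the first, 4 in the second and 2 in the last, and the pathway genes called were 42, 12, 3, 40 and 5 in the same order. Of all tested genes, 64.9%, 39%, 10.6%, 56.7% and 27.7% were called with no fold threshold, again in that order. A fold threshold of 0.5 gave 5 pathway genes in Yki*+Dp against GFP+P35, 1 in YkiWT against GFP+P35 and 2 in Yki*+Dp against YkiWT, and a pseudocount of 0.1 gave 4 in Yki*+Dp against GFP+P35. Leaving out each library in turn gave 4 to 5 regulators and 22 pathway genes in Myc+E2f/Dp against GFP+P35, and 5 to 6 and 22 to 23 in Myc+E2f/Dp against Yki*+Dp. Over all genes, 1064 were called in Myc+E2f/Dp against GFP+P35 (581 higher, 483 lower), 2448 with TPM as deposited (2340 higher, 108 lower) and 2800 at a fold threshold of 0.5. The splits also moved with TPM as deposited in Yki*+Dp against GFP+P35 (722 higher and 48 lower, with scaling 449 and 119), in Myc+E2f/Dp against Yki*+Dp (839 and 233, with scaling 406 and 449) and in Yki*+Dp against YkiWT (365 and 72, with scaling 201 and 126). With the 75th percentile the split was 508 and 328 in Myc+E2f/Dp against Yki*+Dp. The calls with a fold threshold of 0.5 were 1657, 515, 2292 and 1110 in the other comparisons, against 568, 173, 855 and 327 at 1, and a pseudocount of 0.1 gave 318 in YkiWT.

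With TPM as deposited, the sign turned for *CycD* in Myc+E2f/Dp against GFP+P35 (0.40) and against Yki*+Dp (0.19), for *CycD* (0.21), *dap* (0.17), *Skp2* (0.01), *ago* (0.32) and *l(2)dtl* (0.08) in Yki*+Dp against GFP+P35, and for *dap* (0.07) and *l(2)dtl* (0.13) in Yki*+Dp against YkiWT. Without the factors the median log2 fold change of all genes against GFP+P35 was 0.74 for Myc+E2f/Dp and 0.30 for Yki*+Dp. Leaving out 1 library turned values near 0: *ago* in Yki*+Dp (-0.03 to 0.02), *fzr* (-0.01 to 0.08) and *Rca1* (0.00 to 0.10) in YkiWT, and *CycD* (-0.04 to 0.09) and *l(2)dtl* (-0.08 to 0.04) in Yki*+Dp against YkiWT, as ranges over the left-out libraries. With the 75th percentile, *fzr* in YkiWT was -0.01 and *CycD* in Yki*+Dp against YkiWT was 0.00. At a filter of 5 TPM *Rca1* was not tested. A pseudocount of 0.1 brought *fzr* in Myc+E2f/Dp to -1.02.

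Replicate numbers did not pair the libraries: same-numbered deviations correlated from -0.313 to 0.515, 7 of 15 pairs were over 0.1, and 4 of 15 had their own number as best match. With the number as a replicate block, the counts stayed at 4, 0, 0, 6 and 0 regulators and 22, 2, 0, 23 and 1 pathway genes.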
